A study of Mus musculus with 6 samples.

Results

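Solute carriers are membrane proteins that move sugars, organic acids, nucleotides, vitamins, lipids and ions across the plasma membrane and the membranes of organelles, and their genes carry symbols that begin with Slc. In T cells they supply the glucose, lactate exchange, metal ions and vitamins that activated and dividing cells use, and the Slc25 family links the cytosol to the mitochondrial matrix. The genes described here are those with an Slc family symbol and a summed raw count of at least 300 over 6 RNA-seq libraries, after leaving out 8 amino acid carriers (Slc3a2, Slc7a1, Slc7a5, Slc7a6, Slc7a11, Slc1a5, Slc38a1 and Slc38a2) and 4 pseudogenes. Of 379 such symbols among the 54532 genes of the count table, 367 were left by name and 166 reached the summed count. Another 201 stayed under it, of which 64 had no count in any library. The genes were thus chosen by measured values, their summed counts over both groups together, and all 166 passed the filter on low counts. Just inside the limit lay Slc6a8, Slc7a8 and Slc29a2, with summed counts of 308, 319 and 323. Just outside lay Slc27a3, Slc16a9 and Slc8a1, with 282, 254 and 254.

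The libraries came from spleen CD4+ T cells of wild type C57BL/6J mice with colitis caused by dextran sulfate sodium (DSS) in the drinking water, so both groups had colitis. In 3 libraries the mice had been given the gut bacterium Akkermansia muciniphila daily, and in the other 3 phosphate-buffered saline (PBS). The labels used here state neither sex nor age. In the descriptions, library 2 of each group is said to hold CD5+ cells and library 3 CD6+ cells, although all 6 carry the cell type CD4+. The design text calls the libraries biological replicates but does not tie them to single animals, so the p-values measure the spread between these libraries.

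Total counts ran from 15032257 to 16677923 per library. Transcripts of the T cell genes Cd3e and Cd4 were abundant in all 6 libraries, at 332 ± 5.80 and 884 ± 29.6 CPM (counts scaled to library size) with Akkermansia and 282 ± 16.2 and 688 ± 31.9 CPM with PBS (SD, n = 3). Of 8 T cell markers 4 rose and 1, Cd28, fell. Markers of other cells moved with the groups as well. All 10 B cell markers rose, with a summed level of 384 to 505 CPM with Akkermansia and 184 to 199 CPM with PBS. Both CD8 T cell markers rose (summed 61.3 to 93.4 against 19.1 to 20.2 CPM), as did 4 of 7 NK cell, 3 of 6 dendritic cell, 1 of 5 tested neutrophil and 1 of 9 monocyte and macrophage markers, with summed levels of 47.2 to 56.9 against 36.6 to 44.5 CPM for NK cells, 34.8 to 39.7 against 15.1 to 22.3 CPM for dendritic cells, 72.9 to 163 against 12.7 to 52.1 CPM for neutrophils and 450 to 486 against 355 to 431 CPM for macrophages. The T cell rises numbered 2 without Akkermansia 1, Akkermansia 3 or PBS 1, and the dendritic cell rises 1 without Akkermansia 1, Akkermansia 3, PBS 1 or PBS 3. The macrophage rises numbered 2 without Akkermansia 1 and 3 without PBS 2, and the neutrophil rises 2 without PBS 3. Of 10 erythroid markers 1 fell (222 to 390 against 437 to 994 CPM). Of 4 tested plasma cell markers 2, Prdm1 and Xbp1, fell, while the summed level was 192 to 227 against 156 to 216 CPM. The falls numbered 2 only without PBS 3 and 1 in the other 5 fits without 1 library. The plasma cell genes Jchain and Sdc1 had 0.94 ± 0.33 and 0.59 ± 0.33 (log2, SE) and were not called (adjusted p = 0.146 and 0.26). Without PBS 2, Jchain was called higher. The neutrophil genes Mpo and Elane were at 0 in PBS 2, and the plasma cell gene Tnfrsf17 was at 0 in that library too. In bulk RNA fewer cells of a type and less RNA per cell cannot be told apart, and the part of these other cells in the carrier results was not tested.

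Among the 166 genes, 15 were higher and 23 lower with Akkermansia at an adjusted p under 0.05 by edgeR's quasi-likelihood test, where the Benjamini-Hochberg adjustment ran over all 15138 tested genes. That is 9.04% higher and 13.9% lower, against 7.32% and 8.28% of all genes tested, and against 9.16% and 10.1% of the 11214 tested genes that reached the same summed count. Together 22.9% of the 166 genes were called, against 15.6% of all genes tested and 19.2% of those with the same summed count. The median log2 fold change of the 166 genes was 0.0, and 85 lay above 0 and 81 below. The groups did not overlap in 29 higher and 38 lower genes, that is in 17.5% and 22.9%. Groups lay apart in 34.9% of all genes tested (17.1% higher, 17.8% lower) and in 39.4% of those with the same summed count (19.8% higher, 19.6% lower). Only Slc16a1 and Slc16a5 were called with a change of 2-fold or more. The substrate classes below were assigned from textbook functions.

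Calls depended on which library was left out. The lower genes dropped to 15 without Akkermansia 1, to 13 without Akkermansia 2, to 11 without Akkermansia 3 and to 12 without PBS 1. The higher genes were 9 in the fits that lacked either Akkermansia 3 or PBS 1, and 10 in those that lacked Akkermansia 1 or 2. Dropping PBS 2 gave 14 higher and 24 lower genes, and dropping PBS 3 gave 19 and 20. Of the 38 called genes 17 were called in every alternative fit that was run, namely Slc16a1, Slc25a3, Slc25a25, Slc25a30, Slc30a1, Slc19a2, Slc5a6, Slc10a1 and Slc7a6os among the lower genes and Slc16a5, Slc16a6, Slc35c1, Slc39a3, Slc43a2, Slc17a9, Slc27a4 and Slc9a3r1 among the higher ones.

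**Figure D1:**
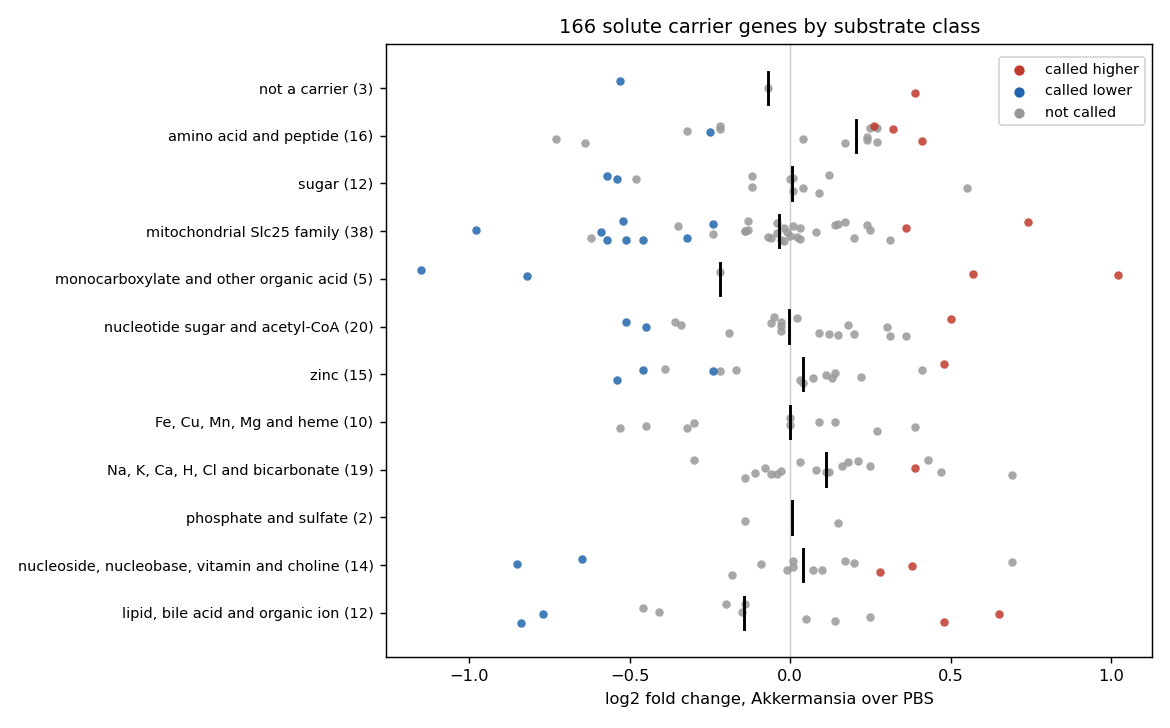
Each point is 1 of 166 genes, placed by its log2 fold change of Akkermansia over PBS (x axis) and its substrate class (y axis, number of genes in brackets); vertical bars are class medians and the scatter within a row has no meaning. Monocarboxylate carriers reach furthest on both sides, from -1.15 for Slc16a1 to 1.02 for Slc16a5, while the medians of most classes lie near 0.

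Of the 166 genes 3 are named after a carrier without being carriers. Slc9a3r1 encodes the scaffold protein NHERF1, which tethers membrane transporters to the cytoskeleton. It had 198, 177 and 203 CPM in PBS 1, 2 and 3 and 260, 253 and 246 CPM in Akkermansia 1, 2 and 3, so every treated library lay above every control, and it rose by 0.39 ± 0.07 (log2, SE, adjusted p = 0.0033). Slc7a6os, whose gene was named for lying opposite Slc7a6, fell by 0.53 ± 0.07 from 97.1 ± 2.47 to 67.1 ± 4.50 CPM (adjusted p = 0.000578). Slc4a1ap, the adaptor kanadaptin, had 37.8 and 36.0 CPM and was not called (adjusted p = 0.739). Leaving these out, 14 of 163 carriers were higher and 22 lower.

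Monocarboxylate carriers moved in opposite directions, with 2 of 5 lower and 2 higher. The share called was 80.0% of these 5 genes, against 15.6% of all genes tested and 19.2% of those with the same summed count. Slc16a1 encodes MCT1, which carries lactate and pyruvate together with protons across the plasma membrane. It had 70.5, 56.9 and 60.2 CPM in PBS 1, 2 and 3 and 27.9, 23.8 and 32.7 CPM in Akkermansia 1, 2 and 3. The lowest control lay well above the highest treated library, and Slc16a1 fell by 1.15 ± 0.12 (log2, SE, adjusted p = 0.000117), the lowest value of all 166 genes. In every fit that left out 1 library it was called lower (adjusted p up to 0.0014).

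The other called members of the family were less abundant or rose. Slc16a5, which encodes MCT6, had 15.3, 22.9 and 16.2 CPM with PBS and 30.2, 38 and 41.9 CPM with Akkermansia, and it rose by 1.02 ± 0.17 (log2, SE, adjusted p = 0.00326). Slc16a6, which encodes MCT7, a protein linked to the export of ketone bodies, had 31.2, 27.0 and 28.9 CPM with PBS and 45.1, 40.6 and 43.9 CPM with Akkermansia. It rose by 0.57 ± 0.09 (adjusted p = 0.0017), and in both genes all treated libraries lay above all controls. Slc16a4 fell from 4.92 ± 0.304 to 2.79 ± 0.130 CPM (SD, n = 3, adjusted p = 0.0283), a call lost without Akkermansia 1, Akkermansia 2, Akkermansia 3 or PBS 1 (adjusted p 0.0731 to 0.0953). Slc16a3 encodes MCT4, the lactate exporter of highly glycolytic cells, and was not called. Its levels of 6.22, 6.89 and 6.93 CPM with PBS and 7.15, 4.07 and 5.96 CPM with Akkermansia overlapped (-0.22 ± 0.22, adjusted p = 0.554).

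The promoter of Slc16a1 is printed because this gene had the lowest log2 fold change of the 166. The sequence is that of RefSeq on GRCm38.p6, chr3:104638414-104638663, plus strand, the 250 bases before the annotated start, outside every exon annotated there. Capitals mark the E-box CACGTG, the site read by MYC and related factors, found at positions -200 to -195 relative to the start.
Slc16a1 promoter: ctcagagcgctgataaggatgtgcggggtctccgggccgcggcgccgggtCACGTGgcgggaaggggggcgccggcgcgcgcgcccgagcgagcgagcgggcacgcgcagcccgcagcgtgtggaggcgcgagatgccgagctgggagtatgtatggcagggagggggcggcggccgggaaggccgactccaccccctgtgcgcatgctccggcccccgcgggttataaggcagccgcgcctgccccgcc
Promoters in that table were matched by symbol for 126 of the 166 genes. On both strands of the 250 bases, CACGTG occurred in 4 of 23 lower genes (17.4%), 1 of 10 higher genes and 17 of 93 genes that were not called (18.3%), against 6.86% of the 27025 genes in the table. A match is a string of letters and not a measured binding site.

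Genes around lactate and glucose transport were called in both directions. Of 10 tested accessory genes 3 fell and 2 rose, and of 15 glycolysis genes 1 fell and 3 rose. Of all genes tested 15.6% were called. Emb, embigin, an ancillary subunit of monocarboxylate carriers, had 360 ± 52.3 CPM with PBS and 256 ± 17.6 CPM with Akkermansia and fell (SD, n = 3, adjusted p = 0.00773). Bsg, basigin, the chaperone of MCT1 and MCT4, was not called at 87.9 and 97.1 CPM (adjusted p = 0.171). Arrdc3, an arrestin-domain protein that directs membrane proteins to endosomes, fell from 64.9 ± 0.780 to 43.3 ± 3.16 CPM (adjusted p = 0.00058). Txnip, an arrestin-domain protein that removes glucose carriers from the surface, had 1080, 736 and 958 CPM with PBS and 415, 544 and 649 CPM with Akkermansia. Its groups lay apart, but it was not called (-0.78 ± 0.21, adjusted p = 0.0667). Of 15 glycolysis genes Hk1, Aldoa and Eno1 rose, by 0.24, 0.24 and 0.25 (log2, adjusted p = 0.0288, 0.0434 and 0.0265), and Ldhb, a lactate dehydrogenase subunit, fell by 0.40 (adjusted p = 0.043). None of these 4 enzymes was called without Akkermansia 2, Akkermansia 3 or PBS 1, and Ldha, the other lactate dehydrogenase gene, stayed at 422 and 419 CPM.

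Among 12 sugar carriers 2, Slc2a1 and the urate carrier Slc2a9, fell and none rose by the edgeR test. The same test called 15.6% of all genes tested and 19.2% of those with the same summed count. Whether this class differs from other genes was not tested. Slc2a1 encodes GLUT1, the glucose carrier that T cells raise on activation. It had 82.3, 58.8 and 89.5 CPM in PBS 1, 2 and 3 and 52.0, 54.9 and 51.6 CPM in Akkermansia 1, 2 and 3. The treated libraries were close together, PBS 2 lay just above them, and Slc2a1 fell by 0.54 ± 0.14 (log2, SE, adjusted p = 0.0273). Slc2a3, which encodes the high-affinity carrier GLUT3, had 76.4, 84.5 and 89.6 CPM with PBS and 97.7, 85.3 and 84.3 CPM with Akkermansia. These overlapped and were not called (0.09 ± 0.08, adjusted p = 0.501).

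Slc2a9, a urate carrier, had 21.6, 18.9 and 15.9 CPM with PBS and 12.6, 11 and 14.3 CPM with Akkermansia and fell by 0.57 ± 0.15 (log2, SE, adjusted p = 0.0223). Slc37a2, a sugar phosphate exchanger of the endoplasmic reticulum that is abundant in macrophages, had 8.34 ± 1.39 CPM with PBS and 12.2 ± 1.90 CPM with Akkermansia and missed the threshold (adjusted p = 0.0531). It was called higher by DESeq2 (adjusted p = 0.0428). By edgeR it was called with RLE size factors (0.0489), library totals (0.0482), no filter (0.0173), the replicate block (0.0498) and without PBS 3 (0.0242). At an unadjusted p under 0.05 it was the 1 higher sugar carrier. Per gene length, the most abundant sugar carrier was Slc50a1, at 45.7 FPKM over all libraries (66.9 and 67.4 CPM in the groups). The fall of Slc2a1 was not called without any 1 of the Akkermansia libraries or PBS 1 (adjusted p 0.0773 to 0.105), nor that of Slc2a9 without Akkermansia 1, Akkermansia 2 or PBS 1 (up to 0.109), and neither was called on log2(FPKM + 1), at 0.0694 and 0.0749. No sugar carrier was called lower without Akkermansia 1, Akkermansia 2 or PBS 1.

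**Figure D2:**
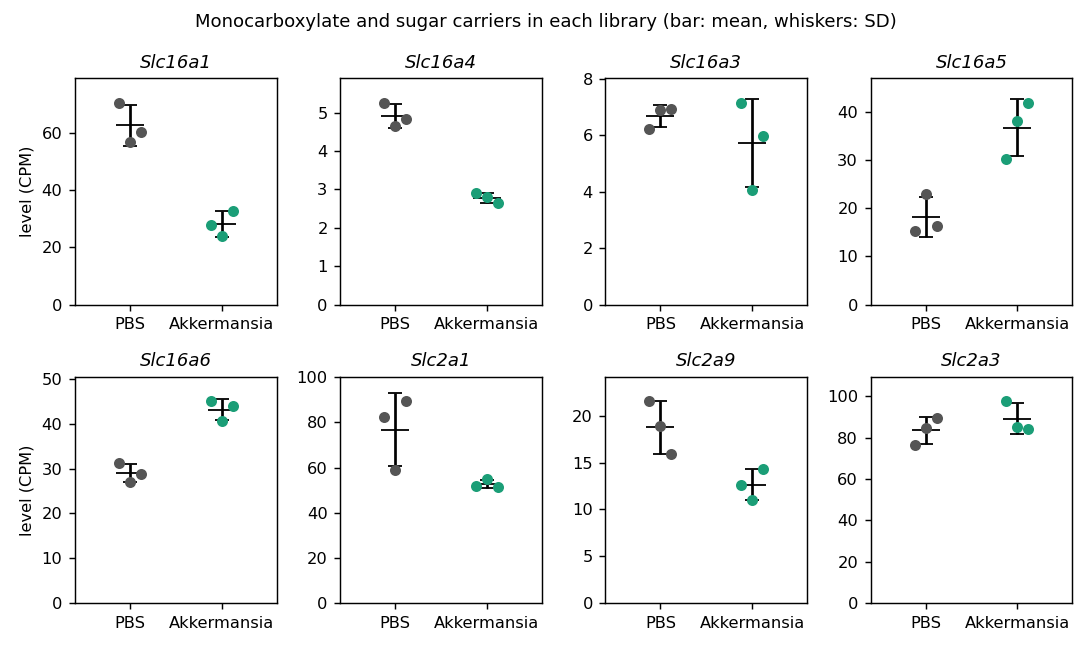
Levels in CPM (y axes from 0, each with its own scale) of 5 monocarboxylate and 3 sugar carriers in the 3 PBS and 3 Akkermansia libraries; points are libraries, bars means and whiskers SD. Slc16a1 is at 56.9 to 70.5 CPM with PBS and at 23.8 to 32.7 CPM with Akkermansia, while Slc16a3 and Slc2a3 overlap between the groups.

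The Slc25 family carries nucleotides, phosphate, acids and cofactors across the inner mitochondrial membrane, and 8 of its 38 members fell while 2 rose. The median of the family was -0.04, with 23 values below 0 and 15 above. That is 21.1% called lower and 5.26% higher, against 8.28% and 7.32% of all genes tested. Among genes with the same summed count the shares were 10.1% and 9.16%. Groups lay apart in 12 lower and 5 higher members, that is in 31.6% and 13.2%. Of all genes tested 17.8% lay apart lower and 17.1% higher, and of those with the same summed count 19.6% and 19.8%. Whether the family differs from other genes was not tested. Slc25a3, the mitochondrial phosphate carrier that feeds ATP synthesis, had 815, 704 and 812 CPM in PBS 1, 2 and 3 and 509, 525 and 514 CPM in Akkermansia 1, 2 and 3. It was the Slc25 gene with the highest CPM, its groups lay far apart, and it fell by 0.59 ± 0.07 (log2, SE, adjusted p = 0.000317). Slc25a25, an ATP-Mg/phosphate exchanger, had 55.6, 49.5 and 63.5 CPM with PBS and 39.4, 38.5 and 35.4 CPM with Akkermansia and fell by 0.57 ± 0.10 (adjusted p = 0.00247). Slc25a30 fell from 70.1 ± 5.67 to 49.2 ± 3.31 CPM (SD, n = 3, adjusted p = 0.00212). These 3 genes were called in each fit without 1 library (adjusted p up to 0.0209).

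ADP/ATP exchange, the exit of ATP from mitochondria, is served by Slc25a4 and Slc25a5. Slc25a4 had 74.4, 62.7 and 58.5 CPM with PBS and 47.7, 51.0 and 43.1 CPM with Akkermansia and fell by 0.46 ± 0.10 (log2, SE, adjusted p = 0.00866). Slc25a5 had 297, 281 and 276 CPM with PBS and 216, 258 and 250 CPM with Akkermansia. It was the most abundant of the 166 genes per gene length, at 159 FPKM over all libraries, and its groups lay apart, but it missed the threshold (-0.24 ± 0.08, adjusted p = 0.0553, and 0.0484 without PBS 3). Slc25a20, which brings acylcarnitines into the matrix for fatty acid oxidation, had 33.9, 28.3 and 28.1 CPM with PBS and 22.7, 21.7 and 18.7 CPM with Akkermansia. It fell by 0.52 ± 0.12 (adjusted p = 0.0108), and without Akkermansia 3 neither it nor Slc25a4 was called (0.0608 and 0.0549).

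The remaining calls in the family were smaller or rested on low levels. Slc25a13, an aspartate-glutamate carrier of the malate-aspartate shuttle, had 6.04, 4.79 and 3.43 CPM with PBS and 2.85, 2 and 2.38 CPM with Akkermansia (-0.98 ± 0.28, adjusted p = 0.0329), whereas its close relative Slc25a12 had 75.5 and 75.7 CPM. Slc25a36, a pyrimidine nucleotide carrier, and Slc25a28, the iron importer mitoferrin 2, fell by 0.24 and 0.32 (log2, adjusted p = 0.0372 and 0.0418). Slc25a23, another ATP-Mg/phosphate exchanger, rose by 0.36 from 40.9 to 52.4 CPM (adjusted p = 0.0374), and Slc25a35 rose by 0.74 from 3.54 to 5.91 CPM (adjusted p = 0.0482). These 5 genes were not called on log2(FPKM + 1), nor without any 1 of the Akkermansia libraries or PBS 1 (adjusted p up to 0.18). The falls numbered 5 without Akkermansia 1, Akkermansia 2 or PBS 1 and 3 without Akkermansia 3. The rises numbered 0 in those 4 fits and 1 without PBS 2 or PBS 3.

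Carriers of citric acid cycle acids were not called. Slc25a1 (citrate), Slc25a10 (dicarboxylates) and Slc25a11 (oxoglutarate) had log2 fold changes of -0.02 ± 0.14, 0.02 ± 0.16 and 0.20 ± 0.08 (adjusted p = 0.93, 0.942 and 0.11). Slc25a37, mitoferrin 1, had 0.15 ± 0.10 (adjusted p = 0.329). Of 15 mitochondrial transport genes under other symbols 2 fell, where 15.6% of all genes tested were called in either direction. Tomm20, a receptor of the outer membrane import pore, fell from 120 ± 5.13 to 82.1 ± 2.33 CPM (SD, n = 3, adjusted p = 0.000308). Micu2, a gatekeeper of the calcium uniporter, fell by 0.28 (adjusted p = 0.0489), a call that of the 6 fits without 1 library was kept only in that without PBS 3 (up to 0.192). Mpc1 and Mpc2, the subunits of the mitochondrial pyruvate carrier, had -0.41 and -0.36 (adjusted p = 0.091 and 0.069), and without PBS 2 the falls in this list numbered 3.

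**Figure D3:**
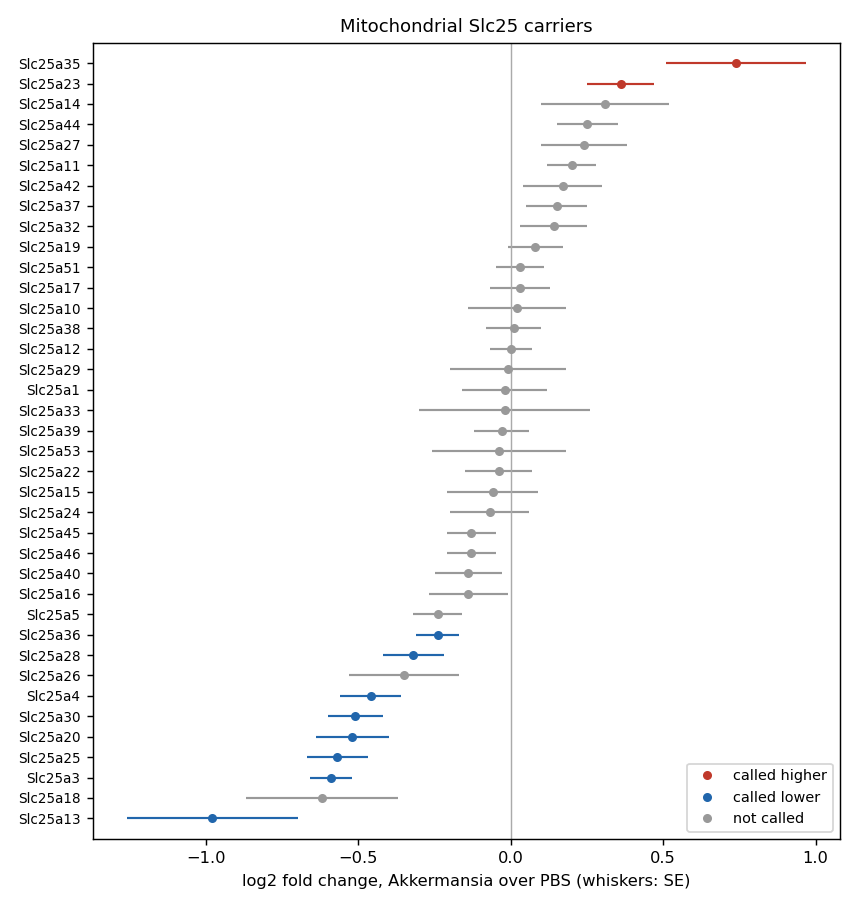
Log2 fold changes of Akkermansia over PBS (x axis) with standard errors (whiskers) for 38 Slc25 carriers (y axis), ordered by value. The 8 genes called lower run from -0.98 for Slc25a13 to -0.24 for Slc25a36, and the 2 called higher are Slc25a23 and Slc25a35.

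Zinc carriers of the Slc30 family move zinc out of the cytosol and those of the Slc39 family move it in. Of 15 zinc carriers 3 of the Slc30 family fell and 1 of the Slc39 family rose. That is 26.7% called, against 15.6% of all genes tested and 19.2% of those with the same summed count. Slc39a8 and Slc39a14 of the Slc39 family were placed with iron and other metals below, and neither was called (adjusted p = 0.243 and 0.998). The other Slc30 genes, Slc30a6, Slc30a7 and Slc30a9, were not called. They had 0.14 ± 0.15, -0.17 ± 0.08 and 0.13 ± 0.07 (log2, SE, adjusted p = 0.58, 0.168 and 0.264). Slc30a1, the exporter of the plasma membrane, had 48.4, 45.2 and 48.8 CPM in PBS 1, 2 and 3 and 28.6, 36.2 and 33.1 CPM in Akkermansia 1, 2 and 3. All controls lay above all treated libraries, and it fell by 0.54 ± 0.10 (log2, SE, adjusted p = 0.00338). Slc39a3, the importer ZIP3, had 23.9, 25.6 and 27.3 CPM with PBS and 34, 35.8 and 37.4 CPM with Akkermansia and rose by 0.48 ± 0.10 (adjusted p = 0.00535). Slc30a4 and Slc30a5, which load vesicles and the secretory pathway with zinc, fell by 0.46 ± 0.10 and 0.24 ± 0.07 (adjusted p = 0.0115 and 0.0411). Slc39a11, another importer of the family, had 24.3, 20.2 and 21.5 CPM with PBS and 15.8, 18.9 and 15.8 CPM with Akkermansia, with groups apart on the lower side (-0.39 ± 0.13, adjusted p = 0.0537). It was called lower without PBS 2 (0.035) and with no filter on low counts (0.0498), and Slc39a13 also had lower groups apart (-0.22 ± 0.12, adjusted p = 0.236). Slc39a4 had higher groups apart (0.41 ± 0.15, adjusted p = 0.078). Whether the 2 families differ from each other was not tested.

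The importers Slc39a6 and Slc39a10, found at the plasma membrane of lymphocytes, had 0.04 ± 0.09 and 0.22 ± 0.11 (log2, SE, adjusted p = 0.808 and 0.194). Slc39a10 also had higher groups apart, at 27.4 to 35.9 CPM with PBS and 36.0 to 38.6 CPM with Akkermansia. Without Akkermansia 1 only Slc30a1 remained among the falls (Slc30a4 and Slc30a5 at adjusted p of 0.0505 and 0.191). Slc30a5 was also lost without Akkermansia 2, Akkermansia 3, PBS 1 or PBS 2 (0.0673 to 0.0957) and by DESeq2. The zinc-induced metallothionein genes were scarce in these libraries. Mt1, metallothionein 1, had 2.65 ± 0.533 CPM with PBS and 1.5 ± 0.272 CPM with Akkermansia and was not called (adjusted p = 0.107), and Mt2 had too few counts to be tested. Mtf1, the zinc-sensing transcription factor, rose from 38.1 ± 0.231 to 46.7 ± 1.88 CPM (SD, n = 3, adjusted p = 0.0281), but not without any 1 of the Akkermansia libraries or PBS 1 (up to 0.128).

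The promoter of Slc30a1 is shown because this gene is a known target of MTF1, which binds metal response elements. It is RefSeq sequence on GRCm38.p6, chr1:191906531-191906766, plus strand, which ends where an annotated exon begins. Capitals mark the 1 match to the element's core, searched as TGCACNC and TGCGCNC on both strands and found here on the opposite strand.
Slc30a1 promoter: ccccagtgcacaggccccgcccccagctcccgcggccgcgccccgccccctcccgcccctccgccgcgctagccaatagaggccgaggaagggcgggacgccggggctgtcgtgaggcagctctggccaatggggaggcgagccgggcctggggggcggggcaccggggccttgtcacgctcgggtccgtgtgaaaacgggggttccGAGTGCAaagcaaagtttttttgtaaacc
The core occurred in 11 of 23 lower genes (47.8%), 2 of 10 higher genes (20.0%) and 29 of 93 genes not called (31.2%), against 23.8% of all genes in the table. A pair of other strings was searched as well. The cAMP response element TGACGTCA occurred in 2 of 23 lower (8.70%), 0 of 10 higher and 1 of 93 uncalled genes (1.08%), against 1.77% of all genes. The NF-kB consensus occurred in 1 of 23 lower (4.35%), 2 of 10 higher (20.0%) and 10 of 93 uncalled genes (10.8%), against 8.23%. The counts are small and describe letters in these windows.

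Carriers of iron, copper, manganese, magnesium and heme gave no call among 10 genes by edgeR's main test or by DESeq2. The main test called 15.6% of all genes tested. At an unadjusted p under 0.05, 1 was higher and 3 lower by edgeR. The copper carriers Slc31a1 and Slc31a2 had -0.45 ± 0.16 and 0.39 ± 0.15 (log2, SE, adjusted p = 0.0729 and 0.0914), each with groups apart, and Slc31a2 was called higher by limma on log2(FPKM + 1). Slc40a1, ferroportin, the iron exporter of macrophages, had 42.5, 68.1 and 59.4 CPM with PBS and 61.2, 80.4 and 63.1 CPM with Akkermansia (adjusted p = 0.402). Slc11a1, NRAMP1, a phagosomal metal carrier of macrophages, had 24.5 ± 4.31 and 19.6 ± 1.74 CPM (adjusted p = 0.127). Slc11a2, the iron importer DMT1, had 48.2 and 53.2 CPM (adjusted p = 0.348). Without PBS 2 the importer Slc39a8 was called lower (-0.80, adjusted p = 0.0269). With no filter on low counts, edgeR called Slc40a1 higher (0.28, adjusted p = 0.038) and Slc41a1 lower (-0.29, adjusted p = 0.0132).

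Iron enters T cells mainly through the transferrin receptor, which is not an Slc gene. Its gene Tfrc had 146 ± 15.3 CPM with PBS and 90.4 ± 14.5 CPM with Akkermansia (SD, n = 3). It fell by 0.69 ± 0.12 (log2, SE, adjusted p = 0.00416), also in each fit without 1 library (up to 0.0247). Of 12 tested genes for zinc and iron handling Tfrc and Atp7b, a copper pump gene at under 1 CPM in each library, fell and Mtf1 rose. Among all genes tested, 15.6% were called. Atp7b was lost in every fit without 1 library (up to 0.167). The ferritin genes Fth1 and Ftl1 had -0.05 and -0.07 (adjusted p = 0.659 and 0.684).

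**Figure D4:**
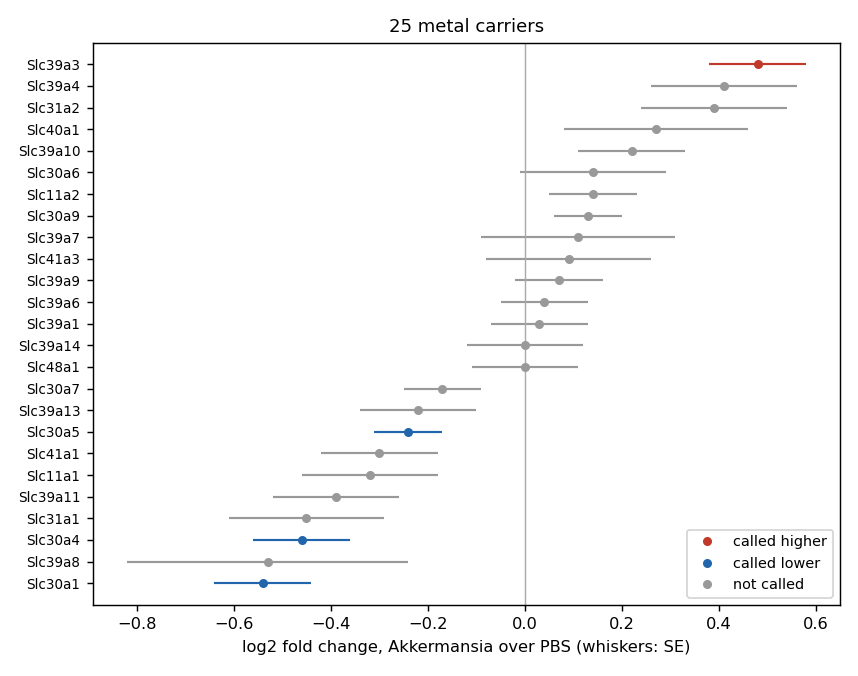
Log2 fold changes of Akkermansia over PBS (x axis) with standard errors (whiskers) for 25 metal carriers (y axis), ordered by value. The 3 genes called lower are the zinc exporters Slc30a1, Slc30a4 and Slc30a5, and the 1 called higher is the zinc importer Slc39a3.

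Of 14 genes for nucleosides, nucleobases, vitamins and choline, 2 vitamin carriers fell and 2 nucleoside carriers rose. That is 28.6% called, against 15.6% of all genes tested and 19.2% of those with the same summed count. Slc19a2, the thiamine carrier, had 14.9, 17.3 and 17.5 CPM in PBS 1, 2 and 3 and 9.11, 7.54 and 10.9 CPM in Akkermansia 1, 2 and 3, with no overlap, and fell by 0.85 ± 0.16 (log2, SE, adjusted p = 0.00379). Slc5a6, the sodium-driven carrier of biotin and pantothenate, had 15.4, 16.3 and 17.5 CPM with PBS and 10.6, 9.94 and 10.8 CPM with Akkermansia and fell by 0.65 ± 0.13 (adjusted p = 0.00543). Other vitamin carriers were not called, among them Slc19a1 for folates (0.17 ± 0.11, adjusted p = 0.355) and Slc23a2 for vitamin C (-0.09 ± 0.08, adjusted p = 0.517).

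Slc28a2, the concentrating carrier of purine nucleosides, had 215, 226 and 221 CPM with PBS and 275, 252 and 278 CPM with Akkermansia and rose by 0.28 ± 0.07 (log2, SE, adjusted p = 0.0147). Slc29a3, the nucleoside carrier of lysosomes, had 37.2, 40.1 and 38.7 CPM with PBS and 45.8, 52.9 and 51.9 CPM with Akkermansia and rose by 0.38 ± 0.09 (adjusted p = 0.013). Slc29a1, the equilibrative carrier of the plasma membrane, had 38.3 and 38.1 CPM. Slc44a2, a choline carrier, was the most abundant of the class per gene length, at 62.4 FPKM, and was not called (0.10 ± 0.07, adjusted p = 0.333). Both falls were called in each fit without 1 library (adjusted p up to 0.0353), whereas the rises numbered 1 without Akkermansia 1 or Akkermansia 2 and 0 without Akkermansia 3 or PBS 1 (up to 0.0819).

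Of 12 carriers of lipids, bile acids and organic ions 2 rose and 2 fell. The share called was 33.3%, against 15.6% of all genes tested and 19.2% of those with the same summed count. Slc27a4, FATP4, which promotes fatty acid uptake by activating the acids with coenzyme A, had 17.1, 22.7 and 22.1 CPM with PBS and 29.6, 32.4 and 35.0 CPM with Akkermansia. It rose by 0.65 ± 0.12 (log2, SE, adjusted p = 0.00427). Slc17a9, the vesicular carrier that loads ATP for release, had 72.1, 73.4 and 81.9 CPM with PBS and 101, 114 and 102 CPM with Akkermansia and rose by 0.48 ± 0.08 (adjusted p = 0.00171). In both genes every treated library was above every control.

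Slc10a1, best known as the bile acid importer of hepatocytes, had 9.54, 9.91 and 8.89 CPM with PBS and 4.74, 5.47 and 5.63 CPM with Akkermansia and fell by 0.84 ± 0.17 (log2, SE, adjusted p = 0.00647). Slc22a15, an organic ion carrier, fell from 13.1 ± 1.58 to 7.63 ± 1.63 CPM (SD, n = 3, adjusted p = 0.0131). Slc22a5, the carnitine importer OCTN2, had 49.0, 34 and 57.1 CPM with PBS and 35.5, 34.5 and 31.7 CPM with Akkermansia. PBS 2 lay among the treated libraries, and the gene was not called (-0.46 ± 0.17, adjusted p = 0.0981) except without PBS 2 (-0.65, adjusted p = 0.000725), with no filter on low counts (0.000331) and by DESeq2 (0.0262). Slc14a1, a urea carrier, had 44.3 ± 8.21 and 33.4 ± 3.68 CPM (adjusted p = 0.0565) and was called lower by DESeq2 (0.0341) and without PBS 3 (0.0163). The falls in this class numbered 1 without Akkermansia 3 or PBS 1, where Slc22a15 was lost (0.0608 and 0.0584), and 3 without PBS 2 or PBS 3.

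**Figure D5:**
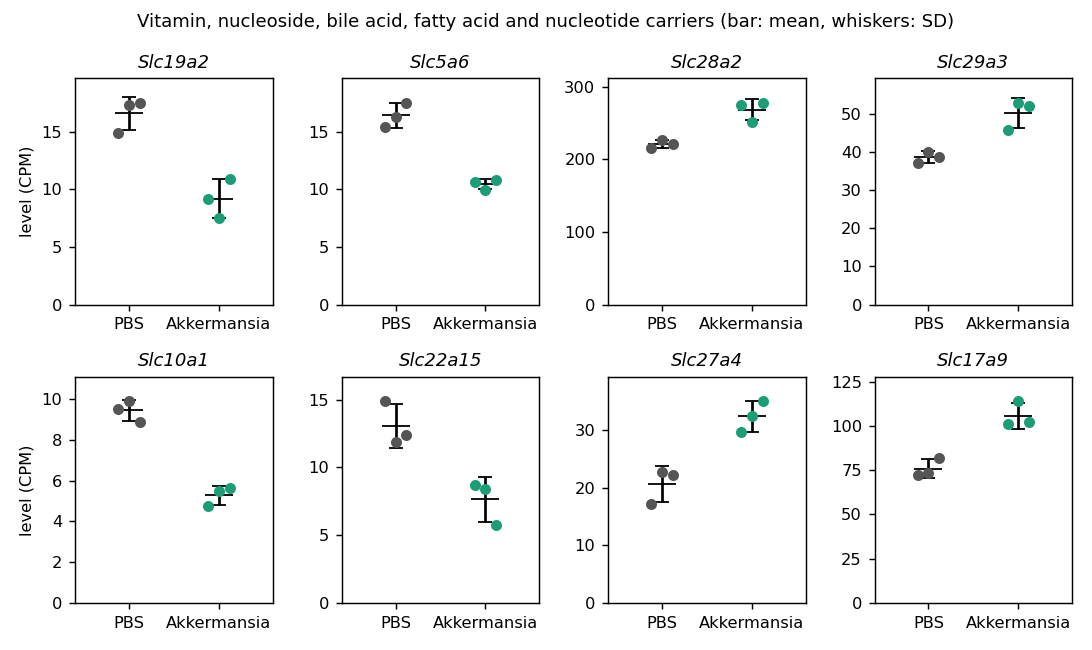
Levels in CPM (y axes from 0, each with its own scale) of 8 carriers of vitamins, nucleosides, bile acids, organic ions, fatty acids and nucleotides in the 3 PBS and 3 Akkermansia libraries; points are libraries, bars means and whiskers SD. No panel has overlapping groups, and Slc19a2, Slc5a6, Slc10a1 and Slc22a15 are lower with Akkermansia while the other 4 are higher.

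Golgi and endoplasmic reticulum carriers of nucleotide sugars supply the donors for glycosylation. The Slc35 family, which holds these carriers and members with other or unsettled substrates, and the acetyl-CoA carrier Slc33a1 made up a class of 20 genes, of which 1 rose and 2 fell. Slc35c1, the GDP-fucose carrier needed for fucosylated selectin ligands, had 54.7, 54.9 and 54.9 CPM in PBS 1, 2 and 3 and 74.7, 82.6 and 75.3 CPM in Akkermansia 1, 2 and 3. The controls were nearly identical, and the gene rose by 0.50 ± 0.07 (log2, SE, adjusted p = 0.000905). Slc35d1, a carrier of UDP-glucuronic acid, had 42.6, 35.3 and 47.9 CPM with PBS and 33.8, 29.4 and 25.2 CPM with Akkermansia and fell by 0.51 ± 0.13 (adjusted p = 0.0224). Slc35f2 fell from 14.3 ± 0.901 to 10.5 ± 0.923 CPM (SD, n = 3, adjusted p = 0.0439), but was not called without any 1 of the 6 libraries (up to 0.167) or by DESeq2. Slc35a1, the CMP-sialic acid carrier, had 21.6 and 21.9 CPM, and Slc35e1, the most abundant of the class in CPM, 101 and 99.7 CPM. The call of Slc35d1 did not survive the loss of Akkermansia 2 or 3 or of PBS 1 or 3 (up to 0.097). In those 4 fits no fall was called in the class, and without PBS 2 there was 1.

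Carriers of sodium, potassium, calcium, protons, chloride and bicarbonate gave 1 rise and no fall among 19 genes. That is 5.26% called, against 15.6% of all genes tested and 19.2% of those with the same summed count. Slc4a2, the chloride-bicarbonate exchanger AE2, had 66.7, 62.0 and 73.0 CPM with PBS and 82.8, 86.5 and 94.8 CPM with Akkermansia and rose by 0.39 ± 0.08 (log2, SE, adjusted p = 0.00777). Slc12a2, the chloride importer NKCC1, had 0.08 ± 0.10 (adjusted p = 0.638). Slc4a7, a sodium-bicarbonate cotransporter, had -0.11 ± 0.10 (adjusted p = 0.502). Slc12a7, the potassium-chloride exporter KCC4 and the most abundant of the class in CPM, had 306, 307 and 413 CPM with PBS and 383, 393 and 407 CPM with Akkermansia. PBS 3 lay with the treated libraries, and Slc12a7 was called only without PBS 3 (0.36, adjusted p = 0.00369) and with no filter on low counts (0.0264). Without PBS 3 the rises in this class numbered 5, and without Akkermansia 3 they numbered 0, where Slc4a2 had an adjusted p of 0.0519. The 1 lower gene at an unadjusted p under 0.05 was Slc26a10. It was called without Akkermansia 1 (-0.42, adjusted p = 0.0463) and with no filter on low counts (-0.28, 0.0477), and no fall was called by DESeq2 or limma. Slc9a7 had higher groups apart and missed the threshold (0.47 ± 0.15, adjusted p = 0.056). It was called higher by DESeq2 (0.0484), with no filter (0.0215) and without PBS 3 (0.025).

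Kinases that control chloride carriers of the Slc12 family were among the accessory genes called. Stk39, which encodes the kinase SPAK, had 52.7 ± 8.56 CPM with PBS and 36.8 ± 1.26 CPM with Akkermansia and fell (SD, n = 3, adjusted p = 0.00822). Wnk1, which acts upstream of it, rose from 584 ± 55.9 to 715 ± 8.57 CPM (adjusted p = 0.0231). Wnk1 was called in 2 of 6 fits without 1 library (adjusted p up to 0.0956). Oxsr1, which encodes the related kinase OSR1, had -0.09 (adjusted p = 0.492). Selenop, a selenium transport protein, rose from 170 ± 14.5 to 213 ± 21.7 CPM (adjusted p = 0.0229) and was called in 3 of 6 such fits (up to 0.129). Of both rises in the accessory list, 1 was left when Akkermansia 1 was dropped and 0 when Akkermansia 2, Akkermansia 3 or PBS 1 was dropped. Both phosphate importers were uncalled by edgeR, DESeq2 and limma, and neither had an unadjusted p under 0.05: Slc20a1, at 57.5 FPKM among the most abundant carriers, had 337 ± 11 and 306 ± 20.4 CPM (adjusted p = 0.225), and Slc20a2 17.5 and 19.5 CPM.

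Slc4a1, the anion exchanger band 3 of red cells, varied widely within both groups. It had 26.9, 19.6 and 53.0 CPM in PBS 1, 2 and 3 and 60.8, 21.6 and 78.1 CPM in Akkermansia 1, 2 and 3 (0.69 ± 0.66, log2, SE, adjusted p = 0.57). The erythroid gene Ermap had 6.46, 4.14 and 7.30 CPM with PBS and 7.71, 2.40 and 9.21 CPM with Akkermansia, and PBS 2 and Akkermansia 2 were the lowest libraries for both genes. The globin genes Hba-a1 and Hbb-bs differed from this order, with their highest level in PBS 3 (434 and 423 CPM).

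Although the 8 main amino acid carriers were left out by name, 16 other carriers of amino acids, peptides and related compounds are among the 166 genes. Of these 3 rose and 1 fell. Slc43a2, the carrier LAT4 for branched-chain and aromatic amino acids, had 56.6, 64.4 and 56.8 CPM in PBS 1, 2 and 3 and 82.6, 76.9 and 76.9 CPM in Akkermansia 1, 2 and 3 and rose by 0.41 ± 0.08 (log2, SE, adjusted p = 0.00428). Slc36a1, a proton-coupled carrier of lysosomes, and Slc6a6, the taurine carrier, rose by 0.32 ± 0.08 and 0.26 ± 0.07 (adjusted p = 0.0203 and 0.0223). Slc38a9, the lysosomal arginine sensor of the mTORC1 pathway, fell by 0.25 ± 0.08 from 63.4 ± 2.40 to 53.4 ± 1.56 CPM (adjusted p = 0.0408).

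For comparison, 3 of 7 tested carriers of the group left out fell, where 8.28% of all genes tested were called lower. They were Slc3a2 (-0.77, adjusted p = 4.3e-05), Slc7a5 (-0.60, 0.000573) and Slc38a2 (-0.63, 0.000897), and these 3 falls were called in each fit without 1 library. Among the 16, Slc43a2 was the call that remained in all those fits. The rises numbered 1 without Akkermansia 1, Akkermansia 2 or PBS 1, and Slc38a9 was called only without PBS 2 among the 6 fits (adjusted p up to 0.149). Slc38a9 was also lost by DESeq2 and with the replicate block (up to 0.186 over the alternatives), and Slc36a1 and Slc6a6 were not called on log2(FPKM + 1).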

How the data were processed

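For 3 Akkermansia and 3 PBS libraries, the table that the authors deposited holds whole-number read counts for each gene and FPKM values, which are scaled to gene length and library size. Per the labels' protocols poly(A) RNA was selected. The submitters' processing notes name the build GRCm39. No source used here gives the aligner, counter, annotation or strand setting, so reads of overlapping or near-identical genes may have been divided or merged. All libraries carry the batch label 1.

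Counts were filtered by filterByExpr (minimum count 10, minimum total 15), scaled by TMM and tested with edgeR 4.0.16 (R 4.3.3, robust quasi-likelihood F test, two-sided, no covariate). CPM use the TMM factors, and 3 counts correspond to 0.181 to 0.20 CPM. Groups came from the sample titles. Alternatives were RLE size factors, DESeq2 1.42.0, no filter, limma 3.58.1 on log2 FPKM with a pseudocount of 1 or 0.1, each library left out, a replicate block and summed counts of 100 or 1000. Library totals and the removal of non-carriers were added after seeing the data. Between PBS replicates the spread was 14.8 to 19.9 times that of read sampling (chi-square per degree of freedom). Between Akkermansia replicates it was 4.47 to 6.17 times. No library was thus a copy of another in its group, and libraries of different groups were not compared in this way. The procedure was also run on counts simulated with dispersions that edgeR had estimated from these data, so that run is no independent check. Where a symbol had several identifiers (Aldoa), the 1 with most counts was used.

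The members and lists were chosen with earlier results of these data known. Named were up to 6 called members per class with groups apart and the smallest p, the most abundant member of each class and a fixed set of landmarks. The other 4 called Slc25 genes, and uncalled genes near the threshold or with uneven libraries, were named after their values were seen. The 3 non-carriers were separated from their classes at that stage too. NHERF1, entered in the accessory list, is listed here as Slc9a3r1. RefSeq promoters (GRCm38.p6) were used for sequence only. Figures were drawn with matplotlib 3.10.9. The result for 1 landmark gene is not reported here.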

Additional observations from a re-analysis of the deposited data

How the results depend on the processing

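Of the 166 genes, 15 were higher and 23 lower. When each library was left out in turn they ranged from 9 to 19 and from 11 to 24, with fewer samples in each fit. On log2(FPKM + 1) and on log2(FPKM + 0.1) the lower genes numbered 14 each; the cause was not tested. The higher genes numbered 12 and 11 there. DESeq2 gave 17 and 21, no filter 19 and 26, RLE size factors and library totals 16 and 23 each. A summed count of 100 gave 17 and 23, and of 1000 gave 14 and 19. No called gene changed direction in any of these fits. The median of all genes moved by under 0.1 (log2) with scaling, from -0.01.

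With the replicate block 16 were higher and 24 lower: Slc38a9 lost its call, and Slc37a2 (adjusted p = 0.0498), Slc35b2 and Slc14a1 gained one. Deviations of same-numbered libraries correlated at 0.0846, 0.0774 and 0.0303 over 15138 genes, and each library correlated best with its own number. Same-numbered libraries share the number and the cell named in their descriptions, and no source ties them to 1 animal or day, so this is a hint from the data. At these depths 3 counts are about 0.2 CPM, and the calls of the low members Slc25a13 and Slc16a4 were each lost in 4 of 6 fits without 1 library.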

Other observations

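Slc15a2, a proton-coupled peptide carrier, was named after its values were seen, and it varied widely between libraries of 1 group. It had 9.54, 26.5 and 51.2 CPM in PBS 1, 2 and 3 and 6.77, 67.1 and 31.3 CPM in Akkermansia 1, 2 and 3, with group means of 29.1 ± 20.9 and 35.1 ± 30.4 CPM (SD, n = 3). The difference between the groups was 0.27 ± 1.04 (log2, SE, adjusted p = 0.902 by edgeR), and its sign turned without Akkermansia 2 or PBS 1. The related peptide carriers Slc15a3 and Slc15a4 had 8.03 and 6.87 CPM and 28.2 and 33.4 CPM in the PBS and Akkermansia groups (adjusted p = 0.489 and 0.153).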
